A study of Homo sapiens with 33 samples.

Results

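Transcript levels of 34 genes of glycolysis and of the hypoxia response were followed in NB4 cells, an established human line of acute promyelocytic leukaemia. The genes were chosen by name, as the rows of the count table whose identifiers carry the listed symbols, and they are 34 of the 85160 genes of that table. The list was made with earlier results of these data known. All 34 had enough counts to be tested, but EGLN3 reached that level only through the cells given ATRA for 72 h and 120 h. ATRA, or all-trans retinoic acid, is a form of vitamin A that drives such cells to mature, and it was given at 1 µM. Control cells got DMSO, its solvent, and both kinds of culture were sampled at 4, 12, 24, 72 and 120 h. NB4 cells without treatment were taken at 0 h, and no group carried any other agent or engineered change. There were 11 groups of 3 libraries, each from a biological replicate with the number 2, 4 or 5. Fresh medium and drug followed on day 3, per the labels' protocols, and whether the cells of 72 h were taken before or after it is not given in the sources used here. All cells come from 1 line, and the values are RNA levels, without a measurement of oxygen, glucose, lactate or protein. The question was how the change over time in DMSO cells compares with the change that ATRA adds. Untreated cells were taken only at 0 h, so solvent and time in culture cannot be told apart in DMSO against untreated cells.

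Glycolysis splits glucose into pyruvate in the cytosol. Transporters bring glucose in, hexokinases trap it as glucose phosphate, and phosphofructokinase sets the pace of the upper steps. The lower steps yield ATP, and lactate dehydrogenase and the monocarboxylate transporter MCT4 turn pyruvate into lactate and let it leave the cell. When oxygen is short, the prolyl hydroxylases of the EGLN family no longer mark the alpha subunits of hypoxia-inducible factor (HIF1A and EPAS1) for destruction. The stable factor then binds short DNA elements with the core RCGTG and switches on transporters, glycolytic enzymes, PDK1, BNIP3, VEGFA and other targets. This control acts mainly on the HIF protein, so that the RNA of HIF1A need not follow it. Neutrophils, the cells towards which promyelocytes mainly mature, are known to rely heavily on glycolysis.

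Library totals ran from 18341456 to 33490654 counts, with a median of 25927472. Libraries of the same group correlated at 0.9919 or above on the log scale, across genes above a cut on the counts summed over all libraries. They still differed by more than sampling noise, with a chi-square of at least 2.49 per degree of freedom. Of 8 promyelocyte markers 7 were tested, and their summed level was 474 to 694 CPM (counts scaled to library totals corrected by TMM) in ATRA cells at 120 h, 9420 to 11550 CPM in DMSO cells at 120 h and 12020 to 13230 CPM in untreated cells. The 8 proliferation markers summed to 660 to 873 CPM in ATRA cells at 120 h, 1107 to 1220 CPM in ATRA cells at 72 h and 1501 to 1530 CPM in DMSO cells at 72 h, against 2429 to 2540 CPM in untreated cells. In libraries made from a mass of cells, fewer cells of a type and less RNA per cell cannot be told apart. All libraries of 0, 4 and 12 h ran in lane 4, and from 24 h on replicate 2 ran in lane 2 and replicates 4 and 5 in lane 3, per the column names of the table. Lane and time therefore cannot be told apart in DMSO at 24, 72 and 120 h against untreated cells, whereas ATRA and DMSO of the same time, and 24, 72 and 120 h among themselves, ran in the same lanes. The step in DMSO that crosses the lanes, 24 h against 12 h, called 0.988% of all genes.

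The promoters of 5 members that were among those with the largest rise in DMSO at 72 h, and of HK3, which went with ATRA, are shown to let the HIF core be seen beside the values. They were picked with the values and the matches known, all 5 of the first kind hold the core, and they are examples that do not stand for the other members. HK1 also rose in DMSO at 72 h (3.22 ± 0.20, log2, SE), and 6 of its 7 starts in RefSeq hold no match. Each sequence is the 250 bases before the gene's start in RefSeq on GRCh38.p14, on the gene's own strand from 5′ to 3′. Capitals mark ACGTG or GCGTG and, for the other strand, CACGT or CACGC, and CACGTG holds an overlapping match on each strand. The windows lie at chr17:28576896-28577145 (minus strand) for ALDOC, chr12:6914330-6914579 (plus) for ENO2, chr11:10304823-10305072 (plus) for ADM, chr3:48556804-48557053 (minus) for PFKFB4, chr4:185396591-185396840 (plus) for ANKRD37 and chr5:176899347-176899596 (minus) for HK3.
ALDOC: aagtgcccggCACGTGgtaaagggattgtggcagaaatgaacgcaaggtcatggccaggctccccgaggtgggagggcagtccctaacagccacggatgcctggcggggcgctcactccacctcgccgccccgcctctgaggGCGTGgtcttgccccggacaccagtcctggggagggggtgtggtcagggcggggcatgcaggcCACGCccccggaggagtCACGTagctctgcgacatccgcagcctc
ENO2: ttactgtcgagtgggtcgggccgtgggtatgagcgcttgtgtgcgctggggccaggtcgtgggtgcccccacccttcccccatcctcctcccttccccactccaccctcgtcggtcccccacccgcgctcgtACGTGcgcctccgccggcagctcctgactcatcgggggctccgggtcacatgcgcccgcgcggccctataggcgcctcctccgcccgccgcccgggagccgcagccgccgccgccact
ADM: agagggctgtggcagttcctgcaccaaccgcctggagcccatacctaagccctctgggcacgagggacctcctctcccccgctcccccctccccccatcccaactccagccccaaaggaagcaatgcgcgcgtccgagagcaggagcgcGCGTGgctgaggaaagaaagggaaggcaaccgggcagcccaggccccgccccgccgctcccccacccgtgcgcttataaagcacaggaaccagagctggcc
PFKFB4: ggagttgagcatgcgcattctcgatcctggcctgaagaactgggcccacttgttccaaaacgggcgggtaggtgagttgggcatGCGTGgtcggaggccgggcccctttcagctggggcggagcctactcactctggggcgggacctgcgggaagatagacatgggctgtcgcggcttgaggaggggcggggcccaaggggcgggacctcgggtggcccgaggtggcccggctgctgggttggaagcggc
ANKRD37: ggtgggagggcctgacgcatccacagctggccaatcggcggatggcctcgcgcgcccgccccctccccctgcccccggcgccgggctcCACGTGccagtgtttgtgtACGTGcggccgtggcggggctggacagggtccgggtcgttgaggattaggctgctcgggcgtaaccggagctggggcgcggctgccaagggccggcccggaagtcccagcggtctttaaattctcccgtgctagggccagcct
HK3: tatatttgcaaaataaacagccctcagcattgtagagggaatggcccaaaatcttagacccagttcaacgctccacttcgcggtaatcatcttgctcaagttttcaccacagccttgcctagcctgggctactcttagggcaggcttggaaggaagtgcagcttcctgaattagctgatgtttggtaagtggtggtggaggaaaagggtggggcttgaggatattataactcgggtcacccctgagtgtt
The ALDOC window held 5 matches, the ANKRD37 window 3, those of ENO2, ADM and PFKFB4 1 each, and the HK3 window 0. EPAS1 and PKM also separated by treatment, and their windows held 1 and 0 matches, so HK3 does not stand for such members. RefSeq promoters were matched for 31 of the 34 members, with 59 starts, and 34 of these starts (57.6%) held the core, against 43.2% of 35116 starts of all genes. Most genes thus have a fair chance of a match with so short a core, and a match is a description of the letters and not a bound site. VEGFA, NDRG1 and SLC2A3 were not matched.

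In DMSO the members that were called on the first day were mostly lower than in untreated cells, and those called at 72 h and 120 h were mostly higher. In DMSO at 72 h against untreated cells, 27 of 34 members were higher and 5 lower, where 51.6% of the 22971 tested genes were called, with 26.9% of all genes higher and 24.7% lower. At 120 h the counts were 27 higher and 2 lower, on a background of 21.9% called, with 12.3% of all genes higher and 9.58% lower. The median log2 change of the members was 0.91 at 72 h and 0.73 at 120 h, beside 0.07 and 0.02 over all tested genes. With EGLN3, which had no count in untreated cells, set to its bound, the 2 medians were 0.68 and 0.73. EGLN3 is 1 of the members called higher at each of these times, on 4 counts in DMSO at 72 h and 6 counts in DMSO at 120 h against 0 in untreated cells. The exact 95% counting interval of its ratio starts at 0.723 at 72 h, which includes no change, and at 1.2 at 120 h, and nothing is drawn from its calls in DMSO. The shares of higher members lie well above the background, and the rise ran through all 7 of the other HIF targets on the list. As the list was made with earlier results of these data known, this describes the listed genes and is no independent support. On the first day the balance was the opposite, with 3 members higher and 18 lower at 4 h on a background of 31.4% called, with 15.7% of all genes higher and 15.7% lower. At 12 h 5 were higher and 11 lower (background 22.7% called, with 11.2% of all genes higher and 11.5% lower). At 24 h 3 were higher and 8 lower (background 19.1% called, with 9.87% of all genes higher and 9.24% lower). A member counts as called where the quasi-likelihood F test of edgeR gave an adjusted p under 0.05, with p-values adjusted over all tested genes by Benjamini-Hochberg.

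ATRA against DMSO of the same time gave a mixed picture on the first day, mostly higher members at 72 h and an even split at 120 h. At 4 h 7 members were higher and 9 lower, on a background of 24.7% called, with 12.3% of all genes higher and 12.4% lower. At 12 h 9 were higher and 12 lower, and 38.7% of all genes were called, with 20% of all genes higher and 18.7% lower. Within these groups same-numbered libraries correlated, and a fit of them with the replicate block called 28 members. That fit also called more of all genes, 10790 of the 19543 it tested, against 8888 of 22971 in the main fit. It added PFKP (-0.14), ALDOA (-0.12), PGK1 (-0.13), ENO1 (-0.17) and KDM3A (-0.15) as lower, on the log2 scale. PGAM1 (0.12) and HIF1A (0.10) were added as higher. At 24 h 8 were higher and 9 lower, and 33.2% of all genes were called, with 17.4% of all genes higher and 15.8% lower. At 72 h 21 were higher and 7 lower, where 64.7% were called, with 32.1% of all genes higher and 32.6% lower. At 120 h 15 were higher and 14 lower, where 70.6% were called, with 34.9% of all genes higher and 35.6% lower. At 120 h the members' shares in each direction are thus near those of all genes and are no result about the members. At 72 h the share called higher was above the background, and the share called lower was below it. The members called higher at 72 h and 120 h include EGLN3, which passed the filter on low counts only through ATRA cells of these times. Nothing is drawn from its calls there. The members' median log2 change was 0.47 at 72 h and 0.13 at 120 h, against -0.01 and -0.03 over all genes. Both kinds of comparison use the same DMSO libraries, so their values are set side by side and not related to each other.

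**Figure D1:**
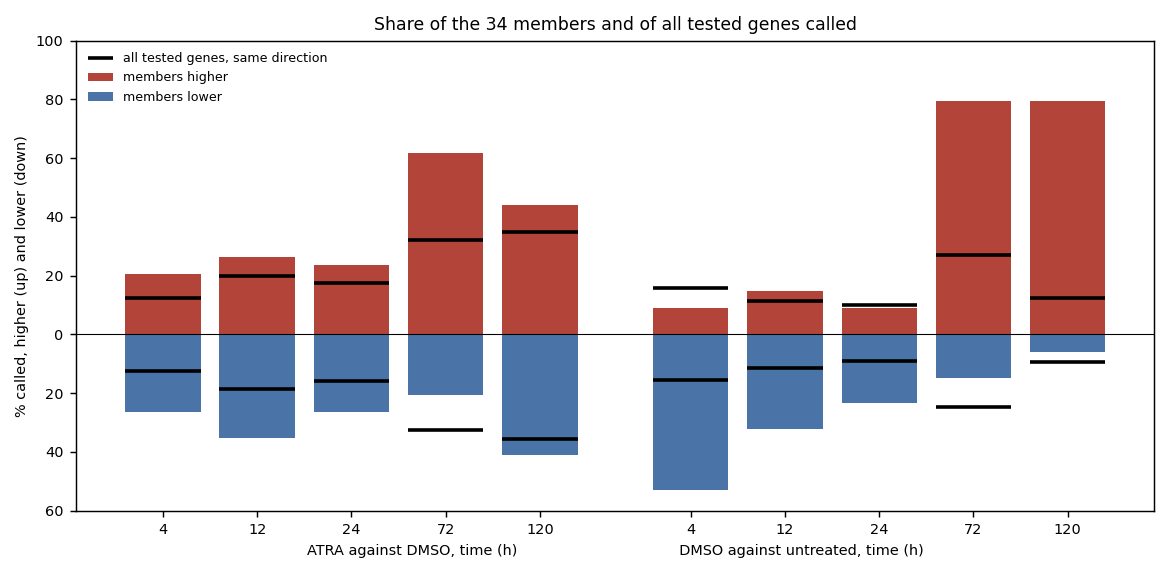
Share of the 34 members called higher (bars above 0) and lower (bars below 0), in percent, in ATRA against DMSO at 5 times (left) and in DMSO against untreated cells at 5 times (right). Black lines give the share of all tested genes called in the same direction, and in DMSO at 72 h and 120 h the bar of higher members stands far above its line.

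**Figure D2:**
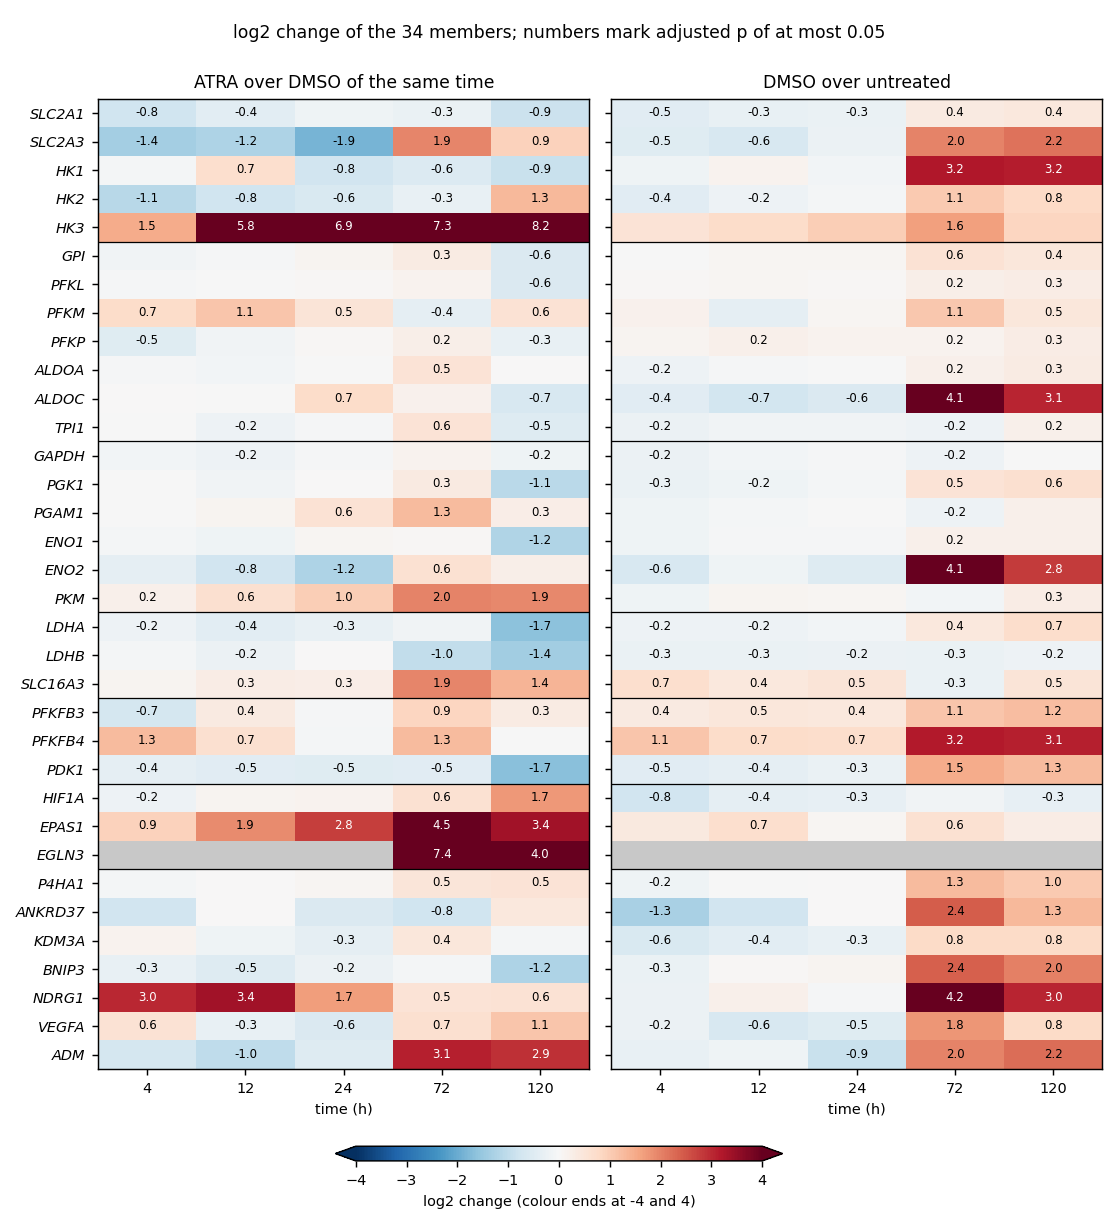
Heat map of the log2 change of each member (rows, in blocks by role) in ATRA over DMSO of the same time (left) and in DMSO over untreated cells (right), at 5 times. Printed numbers mark changes with an adjusted p of at most 0.05, the colour ends at -4 and 4, and grey marks EGLN3 where its counts were too few for a fold.

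Of the 5 genes of glucose uptake and phosphorylation, 5 were higher in DMSO at 72 h than in untreated cells, where all genes had 26.9% called higher. In ATRA against DMSO at 72 h 2 were higher and 3 lower, where all genes had 32.1% called higher and 32.6% lower. This split gives no result about these genes as a set. SLC2A3, the high-affinity glucose transporter GLUT3, was lower in ATRA cells than in DMSO cells on the first day and higher at 72 h and 120 h. SLC2A1, the transporter GLUT1, was lower in ATRA cells at 4, 12, 72 and 120 h. HK2, the inducible hexokinase, was lower in ATRA cells until 72 h and higher at 120 h, while HK3, a hexokinase of myeloid cells, was higher in ATRA cells from 4 h on.

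SLC2A3 had 479, 681 and 516 CPM in ATRA cells at 72 h and 313, 341 and 300.0 CPM at 120 h, against 143, 165 and 129.7 CPM and 155, 168 and 179 CPM in DMSO cells at these times. In the 9 libraries of 4, 12 and 24 h it lay at 7.51 to 11.1 CPM in ATRA cells and 21.4 to 33.3 CPM in DMSO cells, and untreated cells had 34.2, 37.1 and 38.7 CPM. Thus every ATRA library was below every DMSO library on the first day and above every DMSO library of the same time later. The log2 change was -1.36 ± 0.12, -1.22 ± 0.12 and -1.87 ± 0.12 (SE) at 4, 12 and 24 h, then 1.94 ± 0.10 at 72 h (adjusted p = 2.17e-20) and 0.93 ± 0.09 at 120 h (adjusted p = 2.41e-11). DMSO at 72 h exceeded untreated cells by 1.99 ± 0.10 (SE, adjusted p = 8.82e-19). The change of the ATRA effect between 24 h and 72 h was 3.81 ± 0.15 (SE, adjusted p = 1.71e-22). SLC2A3 shares 16.7% of its exon length with SLC2A14 and other genes on its strand, and 3 pseudogenes held counts equal to 28.2% of its own, so part of its signal is uncertain.

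SLC2A1 had 79.3, 82.2 and 72.6 CPM in ATRA cells at 120 h, against 146, 151 and 132 CPM in DMSO cells at 120 h and 106, 104 and 113 CPM in untreated cells. The groups of 120 h did not overlap, with a log2 change of -0.87 ± 0.07 (SE, adjusted p = 1.2e-13). At 4 h the values were 44.02, 46.7 and 42.9 CPM in ATRA cells and 74.8, 74.9 and 84.1 CPM in DMSO cells, a log2 change of -0.81 ± 0.07 (SE, adjusted p = 2.58e-11). At 24 h the log2 change was -0.17 ± 0.07 (SE, adjusted p = 0.0749). At 72 h the ATRA libraries, with 102, 128 and 112 CPM, overlapped the DMSO libraries, with 139, 151 and 126 CPM, although the test called them lower (log2 change -0.28 ± 0.07 SE, adjusted p = 0.000876). DMSO cells were themselves above untreated cells at 72 h (log2 change 0.37 ± 0.07 SE, adjusted p = 4.98e-05) and 120 h (log2 change 0.41 ± 0.07 SE, adjusted p = 4.23e-05).

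HK3 had 0.457, 0.479 and 0.845 CPM in ATRA cells at 4 h, 12.01, 12.8 and 14.3 CPM at 12 h and 33.6, 35.01 and 34.5 CPM at 24 h. It reached 65.3, 67.4 and 75.9 CPM at 72 h and 82.5, 79.9 and 75.9 CPM at 120 h, while the 15 DMSO libraries lay at 0.104 to 0.512 CPM and untreated cells had 0.105, 0.142 and 0.158 CPM. No ATRA library overlapped DMSO of its time, and the level climbed at each step to 72 h. The log2 change over DMSO was 1.48 ± 0.38 (SE) at 4 h, 5.77 ± 0.20 at 12 h, 6.90 ± 0.18 at 24 h, 7.27 ± 0.16 at 72 h and 8.24 ± 0.17 at 120 h (adjusted p = 2.19e-33). DMSO groups held few counts, so that the ratio at 120 h, 4845 counts in ATRA cells over 20 counts in DMSO cells, is 307 with an exact 95% counting interval of 198 to 503. DMSO cells at 72 h had 32 counts and untreated cells 11. The step between 72 h and 120 h in ATRA cells was 0.19 ± 0.09 (SE, adjusted p = 0.0708), which did not pass.

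HK2 had 488, 512 and 500.0 CPM in ATRA cells at 120 h, against 205, 204 and 207 CPM in DMSO cells. At 72 h it had 174, 218 and 202 CPM in ATRA cells and 242, 256 and 233 CPM in DMSO cells, and at 4 h 39.9, 44.01 and 35.9 CPM and 83.9, 87.3 and 86.5 CPM. Untreated cells had 113, 122 and 116 CPM, so both treatments ended above the start. The log2 change of ATRA over DMSO was -1.10 ± 0.07 at 4 h, -0.80 ± 0.07 at 12 h, -0.61 ± 0.07 at 24 h, -0.30 ± 0.07 at 72 h (adjusted p = 0.000155) and 1.29 ± 0.07 at 120 h (SE, adjusted p = 5.2e-20). Between 72 h and 120 h the effect changed by 1.58 ± 0.09 (SE, adjusted p = 6.33e-17). HK1, the hexokinase found in most tissues, was low, with 9.71, 11.5 and 9.26 CPM in ATRA cells at 72 h, 16.01, 16.1 and 12.8 CPM in DMSO cells at 72 h and 1.20, 1.38 and 2.09 CPM in untreated cells. Its rise in DMSO at 72 h against untreated cells was 3.22 ± 0.20 (SE, adjusted p = 3.35e-16), and ATRA cells were lower than DMSO cells at 72 h (log2 change -0.56 ± 0.16 SE, adjusted p = 0.00294) and at 120 h (log2 change -0.88 ± 0.17 SE, adjusted p = 1.65e-05).

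**Figure D3:**
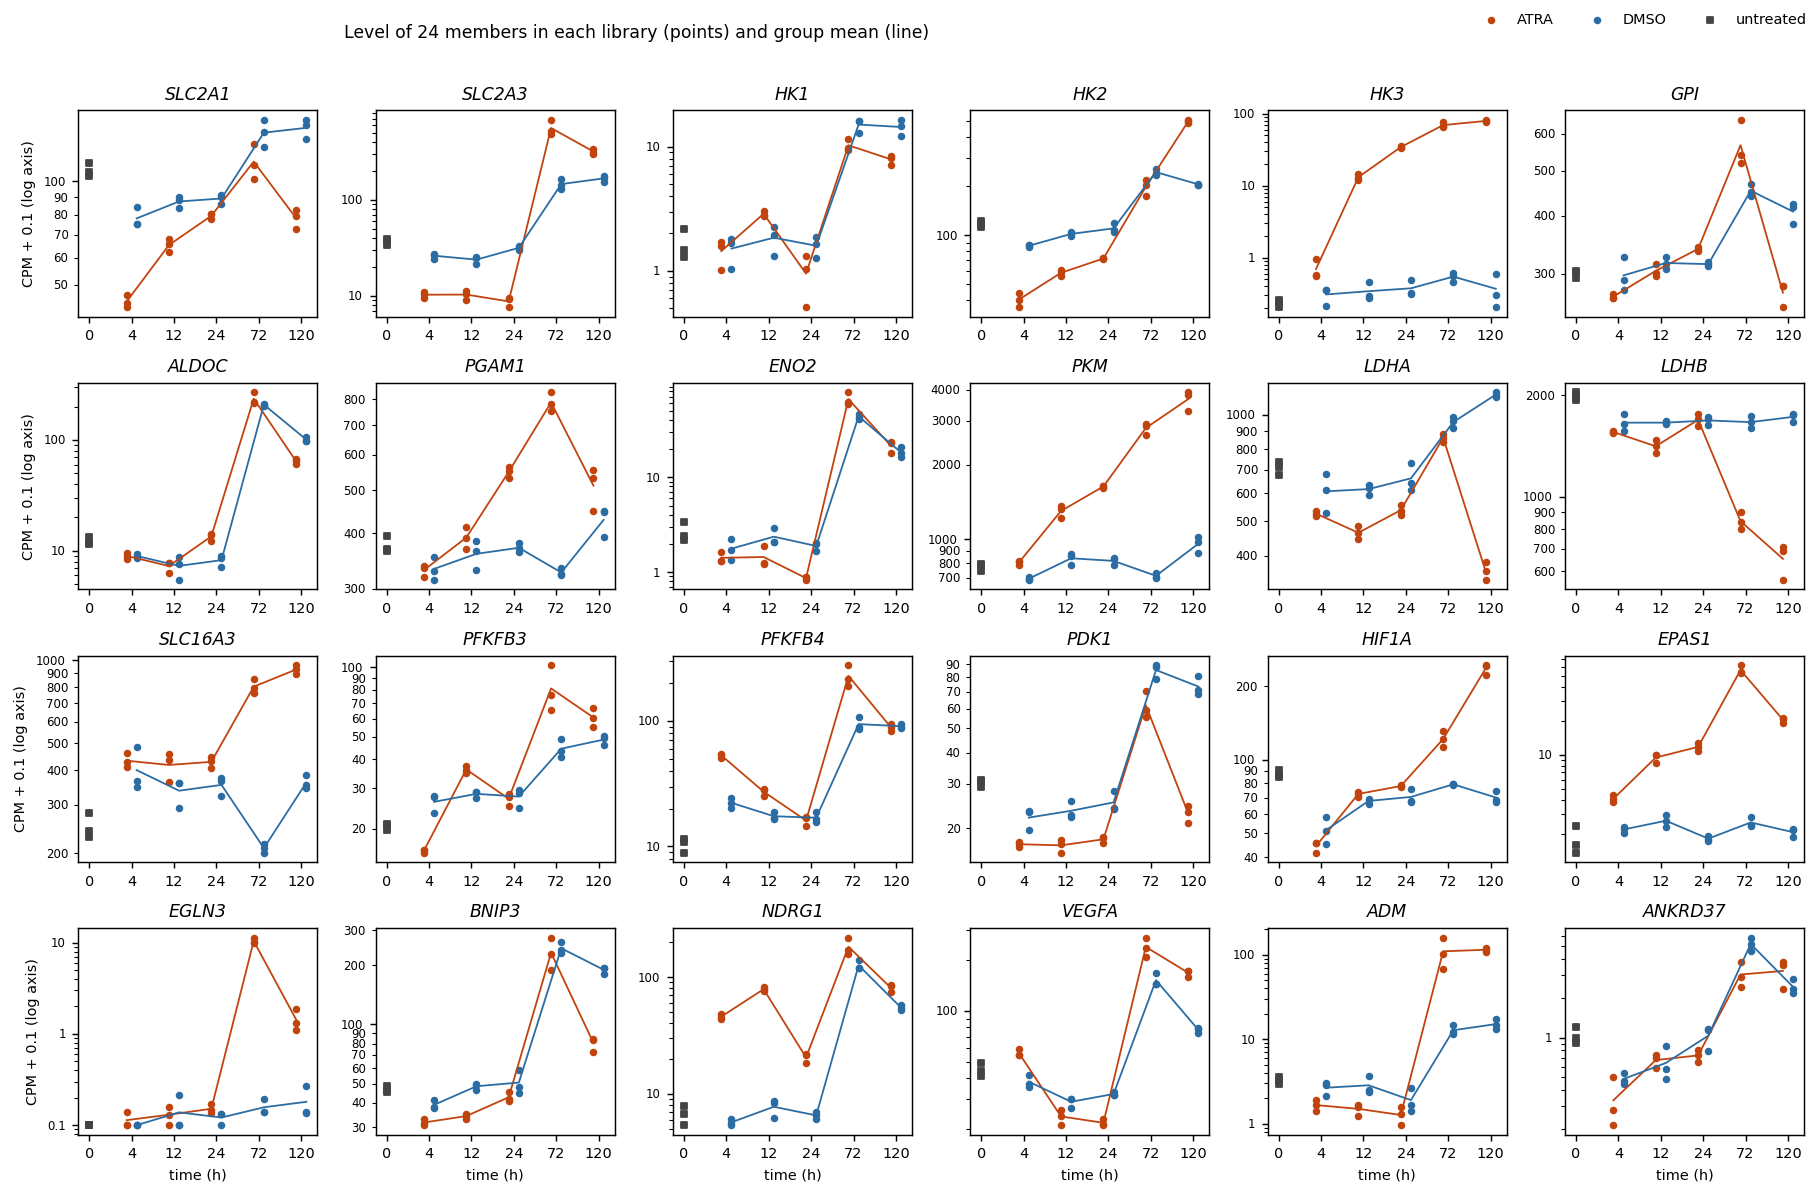
Level of 24 members in every library, in CPM plus 0.1 on a log axis, against time in hours on an evenly spaced axis, with ATRA in red, DMSO in blue and untreated cells as squares. Lines join group means, and the late rise in both treatments (ALDOC, ENO2) can be told from members that separate by treatment (HK3, PKM, EPAS1). NDRG1 shows both patterns, with ATRA cells above DMSO cells from 4 h and a late rise in both.

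Of the 7 genes of the upper steps, 6 were higher and 1 lower in DMSO at 72 h than in untreated cells, where all genes had 26.9% called higher and 24.7% lower. ATRA against DMSO gave 1 higher and 5 lower at 120 h, where all genes had 34.9% called higher and 35.6% lower. The change was large in ALDOC and modest in the others. ALDOC, the aldolase form best known from brain, had 216, 268 and 221 CPM in ATRA cells at 72 h and 64.96, 67.2 and 60.1 CPM at 120 h, against 203, 212 and 208 CPM and 97.8, 106 and 97.9 CPM in DMSO cells at these times. The 9 DMSO libraries of 4, 12 and 24 h lay at 5.37 to 9.23 CPM and untreated cells at 11.6, 11.4 and 13.1 CPM. It was high in all 6 libraries of 72 h and lower in all 6 of 120 h, with the ATRA libraries below the DMSO libraries. DMSO at 72 h exceeded untreated cells by a log2 change of 4.11 ± 0.11 (SE, adjusted p = 6.91e-28). ATRA over DMSO was 0.18 ± 0.09 (SE, adjusted p = 0.0716) at 72 h, which did not pass, and -0.65 ± 0.09 (SE, adjusted p = 4.25e-08) at 120 h. ALDOC shares 60.1% of its exon length with SPAG5 and PIGS on the same strand, and a fragment there was counted for each gene. SPAG5 and PIGS changed by 0.90 and 1.64 on the log2 scale in DMSO at 72 h against 24 h, where ALDOC changed by 4.68 ± 0.11, so its count is uncertain and its size of change larger than theirs.

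GPI, the isomerase after hexokinase, had 519, 644 and 540.2 CPM in ATRA cells at 72 h and 283, 283 and 254 CPM at 120 h, against 441, 468 and 449 CPM and 417, 424 and 384 CPM in DMSO cells at these times, and 293, 305 and 303 CPM in untreated cells. ATRA cells were higher at 72 h (log2 change 0.33 ± 0.07 SE, adjusted p = 4.82e-05) and lower at 120 h (log2 change -0.58 ± 0.07 SE, adjusted p = 5.72e-10), without overlap at either time. PFKL, the liver-type phosphofructokinase, was lower in ATRA cells at 120 h (log2 change -0.58 ± 0.08 SE, adjusted p = 1.11e-08), as was PFKP, the platelet type (log2 change -0.30 ± 0.06 SE, adjusted p = 8.16e-05). PFKM, the muscle type, stood at 2.33 to 7.96 CPM over all libraries and was higher in ATRA cells at 4, 12, 24 and 120 h, with the largest log2 change of 1.11 ± 0.13 (SE, adjusted p = 7.9e-09) at 12 h. At 72 h it was lower in ATRA cells (log2 change -0.35 ± 0.12 SE, adjusted p = 0.0125, and adjusted p = 0.0768 with replicates 4 and 5 alone). ALDOA, the common aldolase, was higher in ATRA cells at 72 h by 0.54 ± 0.08 (SE, adjusted p = 1.25e-07), but it shares 56.1% of its exon length with PPP4C, whose row changed by the same 0.54, so the 2 rows cannot be told apart. TPI1, triosephosphate isomerase, was higher in ATRA cells at 72 h (log2 change 0.55 ± 0.07 SE, adjusted p = 3.66e-09) and lower at 120 h (log2 change -0.52 ± 0.07 SE, adjusted p = 1.03e-08).

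Of the 6 genes of the lower steps, 4 were higher and 0 lower in ATRA than in DMSO at 72 h, and at 120 h 2 were higher and 3 lower. All genes had 32.1% called higher and 32.6% lower at 72 h, and 34.9% and 35.6% at 120 h, so the counts of 120 h give no result about these genes. PKM, pyruvate kinase of the final step, rose in ATRA cells at every step to 120 h. It had 787, 815 and 811 CPM in ATRA cells at 4 h, 1223, 1358 and 1324 CPM at 12 h and 1607, 1648 and 1647 CPM at 24 h. At 72 h and 120 h ATRA cells had 2644, 2863 and 2922 CPM and 3816, 3911 and 3302 CPM, whereas the 15 DMSO libraries lay at 686 to 1026 CPM and untreated cells at 791, 747 and 793 CPM. From 12 h on, every ATRA library was above every DMSO library. The log2 change was 0.63 ± 0.07 at 12 h, 0.996 ± 0.07 at 24 h, 1.98 ± 0.07 at 72 h and 1.94 ± 0.07 at 120 h (SE, adjusted p = 3.57e-25). At 4 h it was 0.21 ± 0.07 (SE, adjusted p = 0.0187), which became 0.0523 without replicate 2 of DMSO at 4 h and 0.108 with replicates 4 and 5 alone. The table counts PKM as 1 gene, so its M1 and M2 splice forms were not compared.

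PGAM1, phosphoglycerate mutase, had 752, 829 and 781 CPM in ATRA cells at 72 h, against 322, 324 and 333 CPM in DMSO cells, a log2 change of 1.27 ± 0.07 (SE, adjusted p = 1.14e-18). It was already higher at 24 h (log2 change 0.57 ± 0.07 SE, adjusted p = 1.99e-08). ENO2, the enolase form best known from neurons, had 62.3, 78.1 and 58.4 CPM in ATRA cells at 72 h and 18, 23.4 and 22.7 CPM at 120 h, against 43.4, 46.4 and 41.2 CPM and 16.1, 17.7 and 20.6 CPM in DMSO cells at these times. The 9 ATRA libraries of the first day lay at 0.727 to 1.77 CPM and the 9 DMSO libraries at 1.24 to 2.83 CPM, and untreated cells had 2.09, 2.30 and 3.23 CPM. Its rise in DMSO at 72 h over untreated cells was 4.07 ± 0.15 (SE, adjusted p = 4.07e-23), and ATRA added 0.60 ± 0.11 (SE, adjusted p = 1.13e-05) at 72 h.

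PGK1 and ENO1 were the enzymes of the lower steps with the largest falls in ATRA cells at 120 h. PGK1, which makes the first ATP of the lower steps, had 595, 636 and 585 CPM in ATRA cells at 120 h and 1263, 1304 and 1245 CPM in DMSO cells (log2 change -1.07 ± 0.06 SE, adjusted p = 2.17e-19). ENO1, the common enolase, had 1406, 1435 and 1153 CPM in ATRA cells at 120 h and 3135, 3192 and 2794 CPM in DMSO cells (log2 change -1.19 ± 0.08 SE, adjusted p = 1.26e-16). GAPDH, often used as a loading control, stayed within 2536 to 3451 CPM over all 33 libraries. Its log2 change of ATRA over DMSO was 0.14 ± 0.07 (SE, adjusted p = 0.0856) at 72 h, which did not pass. It was called lower in ATRA cells at 12 h by -0.21 ± 0.07 (SE, adjusted p = 0.0177), with adjusted p = 0.0639 without replicate 2 of ATRA and 0.0544 without replicate 4 of DMSO, and 0.0788 with replicates 4 and 5 alone. It was also called lower at 120 h by -0.17 ± 0.07 (SE, adjusted p = 0.0361), where the groups overlapped. That call was lost under 9 alternatives, with adjusted p = 0.396 with RLE scaling, 0.323 in DESeq2, 0.185 with the compared groups alone and 0.0605 with a CPM filter. It was lost too without replicate 5 of ATRA at 120 h (0.214), replicate 2 of ATRA at 72 h (0.0769), replicate 4 or 5 of DMSO at 72 h (0.0768 and 0.0778) and replicate 5 of DMSO at 4 h (0.0634).

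Lactate dehydrogenase subunits and the lactate exporter moved apart in ATRA cells. LDHA, the subunit that favours making lactate, had 840.3, 861 and 884 CPM in ATRA cells at 72 h and 342, 384 and 361 CPM at 120 h, against 958, 920.5 and 984 CPM and 1157, 1126 and 1137 CPM in DMSO cells at these times. On the first day it lay at 446 to 558 CPM in ATRA cells and 529 to 729.6 CPM in DMSO cells, and untreated cells had 711, 735 and 674 CPM. At 120 h all ATRA libraries were far below all DMSO libraries and below the untreated cells. The log2 change of ATRA over DMSO at 120 h was -1.65 ± 0.07 (SE, adjusted p = 1.81e-22), and at 72 h it was -0.15 ± 0.07 (SE, adjusted p = 0.0673), which did not pass. DMSO exceeded untreated cells by 0.43 ± 0.07 (SE, adjusted p = 2.43e-06) at 72 h and 0.69 ± 0.07 (SE, adjusted p = 7.29e-10) at 120 h.

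LDHB, the subunit that favours using lactate, had 898, 839 and 801 CPM in ATRA cells at 72 h and 687, 708 and 566 CPM at 120 h. DMSO cells had 1600.1, 1664 and 1731 CPM and 1762, 1747 and 1669.8 CPM at these times, and untreated cells 2040.3, 1979 and 1943 CPM. It was thus the member that fell in ATRA cells at 72 h against 24 h (log2 change -1.0 ± 0.07 SE, adjusted p = 1.16e-15), the only one of 34 called lower in that step, and over DMSO it changed by -0.98 ± 0.07 (SE, adjusted p = 2.05e-15) at 72 h and -1.40 ± 0.07 (SE, adjusted p = 2.02e-20) at 120 h. SLC16A3, which encodes the lactate exporter MCT4, had 761, 794 and 855 CPM in ATRA cells at 72 h and 929, 963 and 891 CPM at 120 h, against 217, 201 and 208 CPM and 353, 383 and 346 CPM in DMSO cells at these times. All 6 ATRA libraries were above all 6 DMSO libraries of these times. The log2 change was 1.94 ± 0.10 (SE, adjusted p = 5.87e-20) at 72 h and 1.36 ± 0.10 (SE, adjusted p = 1.18e-15) at 120 h. In DMSO cells it was lower at 72 h than at 24 h (log2 change -0.76 ± 0.10 SE, adjusted p = 1.83e-08), against the trend of most members.

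All 3 regulators of flux were higher in DMSO at 72 h and 120 h than in untreated cells, where all genes had 26.9% and 12.3% called higher. The 3 regulators took different courses under ATRA. PFKFB3 and PFKFB4 make and break fructose 2,6-bisphosphate, the strongest activator of phosphofructokinase, and PDK1 blocks pyruvate dehydrogenase in the mitochondria. PFKFB4 had 53.7, 54.5 and 50.9 CPM in ATRA cells at 4 h and 191, 278 and 216 CPM at 72 h, against 20.3, 22.1 and 24.1 CPM and 89.7, 107 and 85.6 CPM in DMSO cells and 8.84, 10.7 and 11.3 CPM in untreated cells. At 24 h ATRA and DMSO libraries overlapped (16.98, 16.6 and 14.3 CPM and 18.7, 15.5 and 16.3 CPM), and so they did at 120 h (82.9, 93.8 and 90.02 CPM and 88.1, 93.7 and 90.04 CPM). It was thus higher in ATRA cells early and again at 72 h, with log2 changes of 1.26 ± 0.10 (SE, adjusted p = 1.17e-12) at 4 h, 0.65 ± 0.11 (SE, adjusted p = 4.65e-06) at 12 h and 1.28 ± 0.10 (SE, adjusted p = 9.15e-15) at 72 h. At 24 h and 120 h the changes were -0.07 ± 0.11 and -0.03 ± 0.10 (SE, adjusted p = 0.709 and 0.816). DMSO exceeded untreated cells at each time, by 1.09 ± 0.12 (SE, adjusted p = 1.32e-09) at 4 h and by 3.18 ± 0.11 (SE, adjusted p = 1.25e-23) at 72 h.

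PFKFB3 had 65.2, 102 and 75.6 CPM in ATRA cells at 72 h and 43.6, 48.9 and 40.7 CPM in DMSO cells, and at 4 h 16.2, 15.7 and 16.1 CPM and 27.4, 23.3 and 27.6 CPM. Untreated cells had 20.7, 19.7 and 20.9 CPM. ATRA cells were lower at 4 h (log2 change -0.71 ± 0.11 SE, adjusted p = 2.19e-06) and higher at 72 h (log2 change 0.87 ± 0.10 SE, adjusted p = 6.29e-10), in the order opposite to PFKFB4 at 4 h. PDK1 had 55.6, 70.7 and 58.9 CPM in ATRA cells at 72 h and 20.8, 23.2 and 24.4 CPM at 120 h, against 89.4, 88.01 and 78.8 CPM and 68.5, 71.04 and 80.6 CPM in DMSO cells at these times. Untreated cells had 31.03, 30.8 and 28.9 CPM, and the libraries of the first day had 15.9 to 18.4 CPM in ATRA cells and 19.5 to 27.98 CPM in DMSO cells. The ATRA libraries of 120 h thus lay below those of untreated cells and the DMSO libraries above. The rise in DMSO at 72 h was 1.498 ± 0.09 (SE, adjusted p = 3.67e-17), and ATRA over DMSO was -0.47 ± 0.08 (SE, adjusted p = 6.34e-06) at 72 h and -1.68 ± 0.09 (SE, adjusted p = 9.56e-20) at 120 h.

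HIF1A and EPAS1, of the 3 genes of oxygen sensing, were higher in ATRA cells than in DMSO cells at 72 h and at 120 h. All genes had 32.1% called higher at 72 h and 34.9% at 120 h. EGLN3 was called higher too, but it passed the filter on low counts only through ATRA cells of these times. Its direction was thus set by the filter, and nothing is drawn from these calls. HIF1A, the common alpha subunit, had 130.4, 112 and 122 CPM in ATRA cells at 72 h and 243, 242 and 221 CPM at 120 h, against 79.8, 79.6 and 78.4 CPM and 74.3, 68.6 and 67.2 CPM in DMSO cells at these times. Untreated cells had 91.04, 86.5 and 85.1 CPM, above the 9 DMSO libraries of the first day at 45.01 to 75.8 CPM. ATRA over DMSO was 0.61 ± 0.07 (SE, adjusted p = 5.19e-10) at 72 h and 1.75 ± 0.07 (SE, adjusted p = 1.12e-23) at 120 h, and DMSO at 72 h over untreated cells was -0.14 ± 0.07 (SE, adjusted p = 0.0864), which did not pass. At 4 h DMSO cells were lower than untreated cells (log2 change -0.76 ± 0.07 SE, adjusted p = 5.61e-11). All 6 late DMSO libraries lay below the untreated libraries, at the times when the other HIF targets were higher. HIF1A shares 18.9% of its exon length with a model on its own strand, AL137129.1, whose row changed by 0.48 and 1.61 in ATRA over DMSO at 72 h and 120 h.

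EPAS1, the alpha subunit HIF-2α known from macrophages and endothelium, had 4.34, 3.71 and 3.94 CPM in ATRA cells at 4 h, 9.97, 9.79 and 8.34 CPM at 12 h and 12.6, 11.7 and 10.8 CPM at 24 h. At 72 h it had 53.5, 61.99 and 52.3 CPM and at 120 h 19.1, 21.1 and 20.8 CPM, while all 15 DMSO libraries lay at 1.63 to 2.83 CPM and untreated cells had 2.25, 1.27 and 1.49 CPM. Each ATRA library was above every DMSO library, and the peak was at 72 h. The log2 change over DMSO was 0.93 ± 0.15 (SE) at 4 h, 1.88 ± 0.12 at 12 h, 2.77 ± 0.13 at 24 h, 4.52 ± 0.12 at 72 h and 3.35 ± 0.13 at 120 h (adjusted p = 1.23e-24). Between 72 h and 120 h the effect changed by -1.16 ± 0.19 (SE, adjusted p = 3.36e-06). EGLN3, a HIF prolyl hydroxylase that HIF itself induces, had 9.71, 10.03 and 11.3 CPM in ATRA cells at 72 h and 1.01, 1.23 and 1.78 CPM at 120 h, while no DMSO group held more than 6 counts and untreated cells held none. ATRA and DMSO cells held 754 and 4 counts of EGLN3 at 72 h and 83 and 6 counts at 120 h. As EGLN3 passed the filter only through these ATRA groups, no fold is drawn from these counts.

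The other HIF targets rose together at 72 h in both treatments, and all 7 were higher in DMSO at 72 h and at 120 h than in untreated cells. All genes had 26.9% called higher at 72 h and 12.3% at 120 h in that comparison. NDRG1, a stress-responsive gene that HIF and differentiation induce, had 43.7, 45.6 and 47.7 CPM in ATRA cells at 4 h and 75.4, 81.7 and 78.7 CPM at 12 h, against 5.27, 5.46 and 6.02 CPM and 6.12, 8.54 and 8.21 CPM in DMSO cells. At 24 h the values were 21.2, 21.6 and 18.2 CPM in ATRA cells and 6.43, 6.87 and 5.94 CPM in DMSO cells. At 72 h they were 157, 217 and 171 CPM and 119.6, 139 and 119 CPM, at 120 h 73.6, 83.3 and 85.4 CPM and 51.97, 54.1 and 57.7 CPM, and untreated cells had 5.28, 6.55 and 7.76 CPM. NDRG1 was therefore high in ATRA cells from 4 h and in DMSO cells from 72 h, and in ATRA cells it was lower at 24 h than at 12 h (log2 change -1.95 ± 0.10 SE, adjusted p = 9.51e-18). The log2 change of ATRA over DMSO was 3.03 ± 0.12 (SE) at 4 h, 3.36 ± 0.12 at 12 h, 1.66 ± 0.12 at 24 h, 0.53 ± 0.10 at 72 h and 0.57 ± 0.10 at 120 h (adjusted p = 3.34e-06). DMSO at 72 h over untreated cells was 4.24 ± 0.12 (SE, adjusted p = 1.32e-26).

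ADM, the vasodilator peptide adrenomedullin, had 68.2, 159 and 102 CPM in ATRA cells at 72 h and 115, 121 and 107 CPM at 120 h, against 12, 14.7 and 11.4 CPM and 13.1, 17.1 and 14.8 CPM in DMSO cells at these times. The 9 ATRA libraries of the first day held 0.864 to 1.80 CPM and untreated cells 2.83, 3.50 and 3.14 CPM. All late ATRA libraries were far above the late DMSO libraries, which were above the start. ATRA over DMSO was 3.11 ± 0.18 (SE, adjusted p = 1.05e-18) at 72 h and 2.93 ± 0.17 (SE, adjusted p = 2.15e-18) at 120 h, and DMSO over untreated cells 2.00 ± 0.22 (SE, adjusted p = 9.26e-10) at 72 h. ADM shares 5.7% of its exon length with AMPD3, which has more counts. VEGFA, the vascular growth factor, had 209, 271 and 237 CPM in ATRA cells at 72 h and 159, 173 and 172 CPM at 120 h, against 144, 168 and 143 CPM and 74, 77.9 and 79.3 CPM in DMSO cells at these times and 41.3, 44.1 and 49.2 CPM in untreated cells. At 4 h it was higher in ATRA cells (54.9, 55.1 and 59.7 CPM against 36.9, 35.2 and 41.9 CPM) and at 24 h lower (21.2, 22.8 and 20.98 CPM against 33.01, 31.7 and 31.7 CPM). The log2 changes were 0.57 ± 0.09 (SE, adjusted p = 1.34e-06) at 4 h, -0.57 ± 0.09 (SE, adjusted p = 2.71e-06) at 24 h, 0.65 ± 0.08 (SE, adjusted p = 3.58e-09) at 72 h and 1.12 ± 0.08 (SE, adjusted p = 2.03e-15) at 120 h.

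BNIP3, a mitophagy receptor of the outer mitochondrial membrane, had 189, 275 and 228 CPM in ATRA cells at 72 h and 72.7, 84.7 and 83.7 CPM at 120 h, against 230.3, 262 and 238 CPM and 181, 193 and 194 CPM in DMSO cells at these times. Untreated cells had 45.3, 48.9 and 46.2 CPM, and the first day held 30.7 to 45.1 CPM in ATRA cells and 37.8 to 58.7 CPM in DMSO cells. The groups overlapped at 72 h and stood apart at 120 h, with log2 changes of ATRA over DMSO of -0.08 ± 0.09 (SE, adjusted p = 0.452) and -1.23 ± 0.09 (SE, adjusted p = 1.34e-15). DMSO at 72 h exceeded untreated cells by 2.38 ± 0.09 (SE, adjusted p = 2.05e-22). The table holds 39 BNIP3 pseudogenes with counts equal to 60.5% of those of BNIP3, so its level is uncertain. ANKRD37, a small ankyrin protein induced by HIF, had 2.32, 3.67 and 2.81 CPM in ATRA cells at 72 h, 4.52, 5.06 and 5.71 CPM in DMSO cells at 72 h and 0.889, 0.814 and 1.11 CPM in untreated cells. It was lower in ATRA cells at 72 h (log2 change -0.79 ± 0.20 SE, adjusted p = 0.000799), and DMSO at 72 h exceeded untreated cells by 2.43 ± 0.23 (SE, adjusted p = 2.4e-11). P4HA1, a collagen prolyl hydroxylase, was higher in ATRA cells at 72 h (log2 change 0.49 ± 0.06 SE, adjusted p = 9.15e-09) and 120 h (log2 change 0.54 ± 0.06 SE, adjusted p = 7.01e-10), with 17.6% of its exon length shared, mainly with ECD, whose row changed by 0.48 and 0.43. KDM3A, a histone demethylase, was higher in ATRA cells at 72 h (log2 change 0.45 ± 0.10 SE, adjusted p = 0.000166), and DMSO at 72 h exceeded untreated cells by 0.76 ± 0.10 (SE, adjusted p = 7.83e-08).

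Between successive times of the first day few members moved in DMSO. At 12 h against 4 h ATRA cells had 14 members higher and 4 lower, on a background of 35.4% called, with 18.7% of all genes higher and 16.8% lower. DMSO cells had 5 higher and 3 lower, on a background of 11.1% called, with 5.96% of all genes higher and 5.15% lower. At 24 h against 12 h, across the lanes, ATRA cells had 13 higher and 5 lower, on a background of 19.7% called, with 9.62% of all genes higher and 10% lower. DMSO cells had 1 higher (SLC2A3) and 0 lower, on a background of 0.988% called, with 0.683% of all genes higher and 0.305% lower, and the SLC2A3 call did not hold under many of the alternatives. The ATRA effect changed between 4 h and 12 h for 8 members upwards and 2 downwards (background 14% called, with 8.13% of all genes higher and 5.89% lower). Between 12 h and 24 h it changed for 4 upwards and 5 downwards (background 6.9% called, with 2.5% of all genes higher and 4.4% lower). HK3 was the member that gained most in ATRA cells between 4 h and 12 h (4.48 ± 0.17), and NDRG1 fell between 12 h and 24 h (-1.95 ± 0.10, log2, SE).

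The step between 24 h and 72 h, which lies within the same lanes, showed the DMSO course and the ATRA course side by side. In ATRA cells 31 of 34 members were higher at 72 h than at 24 h and 1 lower, on a background of 62% called, with 31.2% of all genes higher and 30.7% lower. In DMSO cells 25 were higher and 3 lower, on a background of 51.7% called, with 26.2% of all genes higher and 25.5% lower. The members' median log2 change was 1.24 in ATRA cells and 0.67 in DMSO cells, beside 0.00 and 0.02 over all genes. ALDOC changed by 4.13 ± 0.10 in ATRA cells and 4.68 ± 0.11 in DMSO cells, NDRG1 by 3.16 ± 0.11 and 4.29 ± 0.12, and BNIP3 by 2.44 ± 0.09 and 2.27 ± 0.09 (log2, SE). ENO2 changed by 6.43 ± 0.18 in ATRA cells and 4.59 ± 0.16 in DMSO cells, SLC2A3 by 6.02 ± 0.12 and 2.21 ± 0.10, and ADM by 6.52 ± 0.24 and 2.89 ± 0.25. By the interaction test 18 members gained more in ATRA cells and 4 less, on a background of 45.9% called, with 21.5% of all genes higher and 24.5% lower. ADM (log2 difference 3.63 ± 0.40) and SLC2A3 (3.81 ± 0.15) gained more, and NDRG1 (-1.13 ± 0.16) and LDHB (-0.98 ± 0.10) less. For BNIP3 the difference was 0.17 ± 0.13 and for PDK1 0.02 ± 0.12 (adjusted p = 0.293 and 0.923), which did not pass.

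Between 72 h and 120 h the treatments parted. In ATRA cells 3 members were higher at 120 h and 24 lower, on a background of 50.4% called, with 25.1% of all genes higher and 25.4% lower. In DMSO cells 6 were higher and 11 lower, on a background of 40.8% called, with 22.1% of all genes higher and 18.7% lower. The 3 that rose in ATRA cells were HK2 (1.33 ± 0.07), HIF1A (0.96 ± 0.07) and PKM (0.39 ± 0.07). The median was -0.54 in ATRA cells and -0.003 in DMSO cells, beside -0.04 and 0.01 over all genes. LDHA changed by -1.25 ± 0.07 in ATRA cells and 0.26 ± 0.07 in DMSO cells, and PGK1 by -1.31 ± 0.06 and 0.11 ± 0.06. For LDHA in DMSO cells the adjusted p was 0.0033, and 0.0512 without replicate 4 of DMSO at 72 h. The interaction test called 22 members with a lower ATRA effect at 120 h than at 72 h and 5 with a higher one, on a background of 39.3% called, with 17.5% of all genes higher and 21.8% lower.

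**Figure D4:**
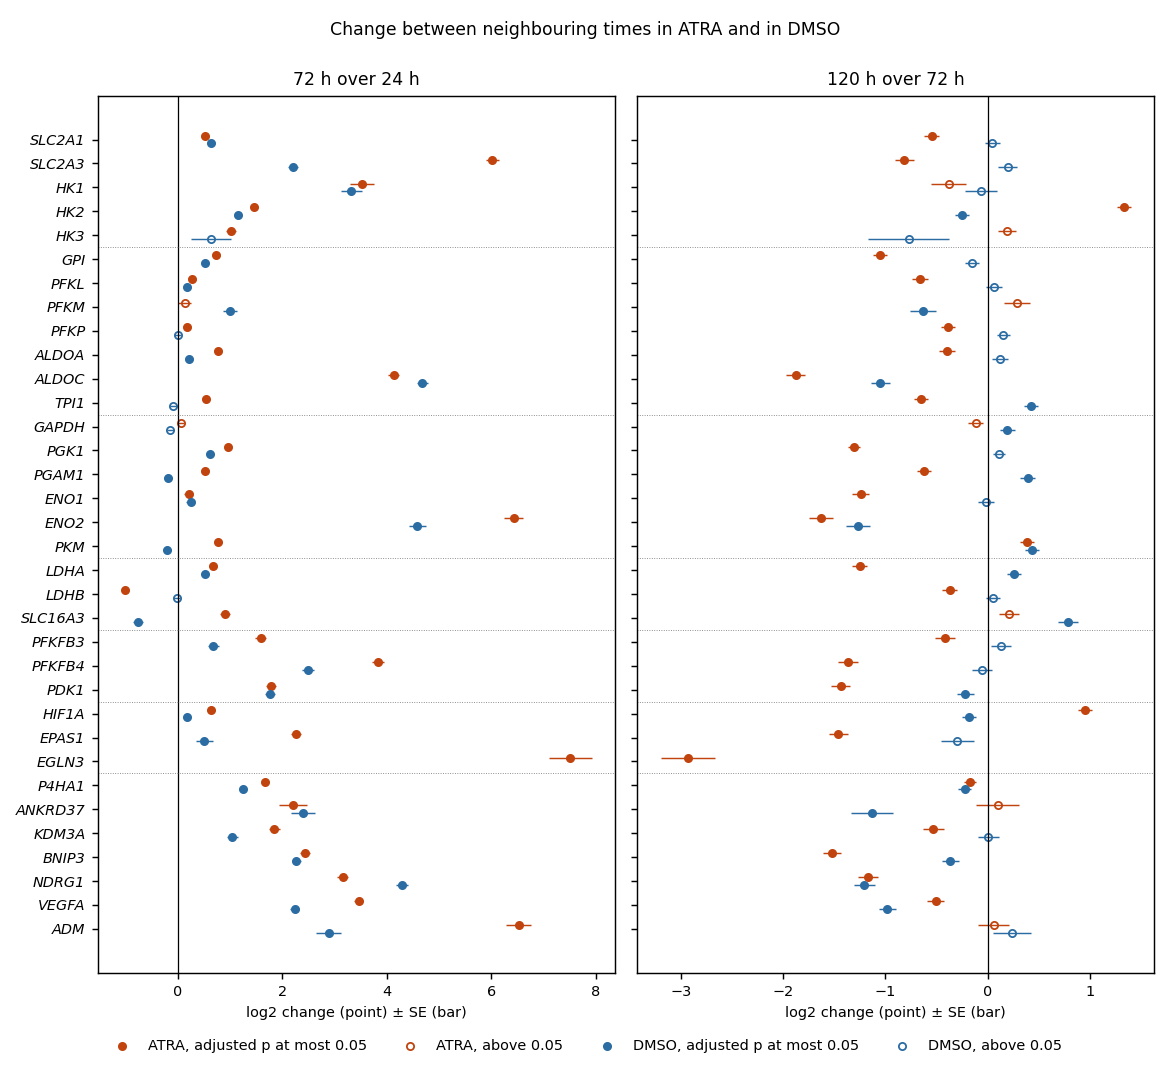
Log2 change of each member (rows, by role) between 24 h and 72 h (left) and between 72 h and 120 h (right), with ATRA in red above DMSO in blue; bars are ± SE and open points did not pass. In the left panel nearly all points lie right of 0 in both treatments, and in the right panel most ATRA points lie left of 0; EGLN3 in DMSO is left out for its few counts.

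DMSO at 72 h was the highest DMSO group for several members, so ATRA at 72 h was also set against the mean of the 24 h and 120 h groups of DMSO. For such members a higher value of ATRA over DMSO follows from that choice. The contrast also mixes treatment with time in culture, so its values are no measure of the ATRA effect. The call at 72 h then turned from lower to higher for HK1 (log2 change 1.14), HK2 (0.40), PFKM (0.46), PDK1 (0.53) and ANKRD37 (0.98). BNIP3, not called at 72 h against DMSO of that time, changed by 1.24, and SLC2A1, called lower, by 0.015, which did not pass (adjusted p = 0.841). Of the markers, the proliferation list was lowest among DMSO groups at 72 h, with 1501 to 1530 CPM, and 2095 to 2219 CPM at 120 h, and its part in these values was not tested. Monocyte and macrophage markers (6 of 8 tested) summed to 297 to 345 CPM in ATRA cells at 72 h and 548 to 641 CPM at 120 h, against 30.7 to 35.9 CPM and 26.5 to 29.5 CPM in DMSO cells, and their part in the ATRA values was not tested. CD68 of this list shares 85.8% of its exon length with other genes, among them MPDU1. Lymphocyte markers (4 of 8 tested) summed to 336 to 397 CPM in ATRA cells at 120 h and 45.2 to 60.7 CPM in DMSO cells at 120 h, and the part of these markers was not tested. NKG7 of this list shares 99.9% of its exon length with other genes, among them ETFB, and CD79A 13.4%, so these sums may hold fragments of other genes and give no level of lymphocyte RNA. Erythroid and megakaryocyte markers summed to at most 4.94 CPM in any library (1 of 8 tested), with HBA1, ALAS2 and PF4 at 0 counts in all.

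Families of enzymes that do the same reaction were compared by level per kilobase of exon, using the GENCODE 29 basic exons, with the deposited exon lengths as the second choice. Among the hexokinases HK3 made up 47.8 ± 0.902% in ATRA cells at 24 h, 39.03 ± 2.65% at 72 h and 23.2 ± 0.978% at 120 h (mean ± SD, n = 3), against 0.477 ± 0.186%, 0.329 ± 0.0705% and 0.234 ± 0.180% in DMSO cells. With the deposited lengths the ATRA shares were 68.6%, 60.9% and 41.95%. HK2 was the main form in DMSO and untreated cells (92.5 ± 0.585% in DMSO at 72 h and 98.1 ± 0.530% in untreated cells). Of the 2 glucose transporters SLC2A3 made up 83.2 ± 1.03% in ATRA cells at 72 h, 51.7 ± 0.871% in DMSO cells at 72 h and 25.8 ± 1.00% in untreated cells. At 24 h its share was 10.01 ± 1.11% in ATRA cells and 26.5 ± 1.58% in DMSO cells. With the deposited lengths these 5 shares were 94.3%, 78.2%, 53.7%, 27.1% and 54.7%, so which transporter is the main one in untreated cells and in DMSO cells at 24 h depends on the length taken. EPAS1 made up 27.6 ± 3.24% of the HIF alpha subunits in ATRA cells at 72 h and 2.47 ± 0.301% in DMSO cells, or 34.6% and 3.40% with the deposited lengths. LDHA made up 35.3 ± 1.89% of lactate dehydrogenase in ATRA cells at 72 h and 22.9 ± 2.26% at 120 h, against 23.4 ± 0.726% and 26.1 ± 0.540% in DMSO cells and 15.96 ± 0.516% in untreated cells. With the deposited lengths LDHA made up 53.7% in ATRA cells at 72 h and 38.8% at 120 h, 39.5% and 42.9% in DMSO cells and 28.8% in untreated cells. ALDOC was 11.1 ± 0.601% of aldolase in ATRA cells at 72 h and 13.8 ± 0.218% in DMSO cells, and ENO2 1.57 ± 0.132% and 1.07 ± 0.0546% of enolase, so the forms with the largest rise stayed the minor ones. With the deposited lengths these shares were 41.9% and 48.2% for ALDOC and 5.21% and 3.60% for ENO2. PFKL and PFKP shared phosphofructokinase in every group, with PFKL at 58.7 ± 0.669% in ATRA cells at 120 h and 63.7 ± 0.768% in DMSO cells, or 52.9% and 58.3% with the deposited lengths.

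**Figure D5:**
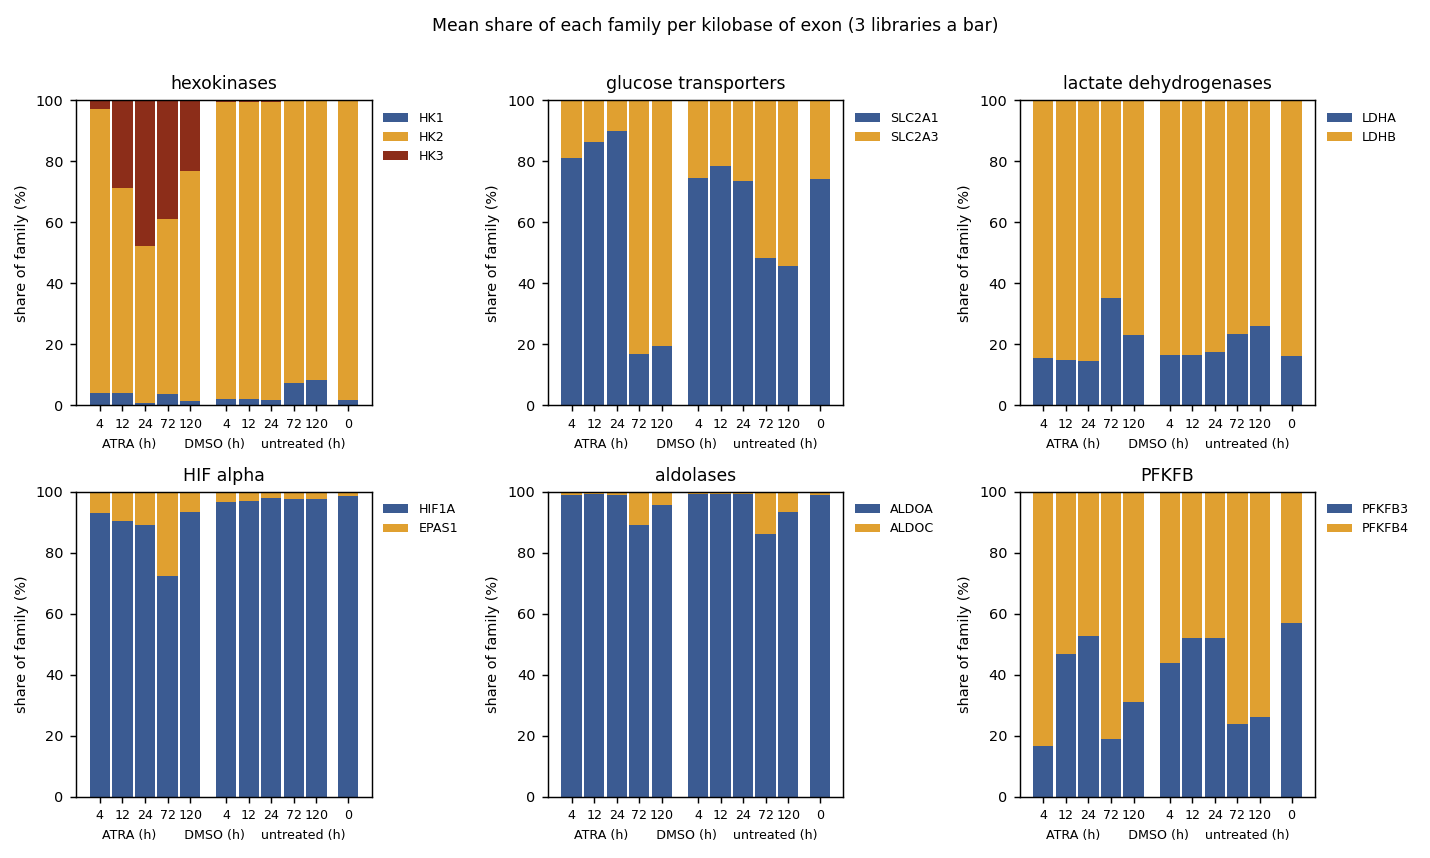
Mean share of each member of 6 gene families, in percent of the family's level per kilobase of GENCODE basic exons, in ATRA cells, DMSO cells (each at 4, 12, 24, 72 and 120 h) and untreated cells. HK3 takes a visible share in ATRA cells from 12 h on, and SLC2A3 makes up most of the pair in ATRA cells at 72 h and 120 h.

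Other genes of the pathway were taken from a list of 110 genes, of which 90 were tested. This list too was made with earlier results of these data known, so its counts are a description. In ATRA against DMSO at 72 h 45 were higher and 21 lower (background 32.1% of all genes higher and 32.6% lower), and at 120 h 35 and 34 (background 34.9% of all genes higher and 35.6% lower), which is near the background. In DMSO against untreated cells at 72 h 39 were higher and 25 lower (background 26.9% of all genes higher and 24.7% lower), and at 120 h 36 and 7 (background 12.3% of all genes higher and 9.58% lower). Of 33 other HIF targets tested, 27 were higher and 3 lower in DMSO at 72 h, and 29 and 1 at 120 h. Of 15 other genes of glycolysis and gluconeogenesis tested, 1 was higher and 6 lower in DMSO at 72 h, and 6 were higher and 3 lower in ATRA against DMSO at 72 h. All 8 pentose phosphate genes were tested. In ATRA against DMSO 3 were higher and 0 lower at 4 h (background 12.3% of all genes higher and 12.4% lower). At 12 h 6 were higher and 1 lower (background 20% and 18.7%), and at 24 h 7 and 0 (background 17.4% and 15.8%). At 72 h 5 were higher and 1 lower (background 32.1% and 32.6%), and at 120 h 6 and 2 (background 34.9% and 35.6%).

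Some of the largest changes on this list are given with their group means. SLC2A5, the fructose transporter GLUT5, averaged 396 ± 15.6 CPM in ATRA cells at 72 h and 40.8 ± 1.58 CPM in DMSO cells (SD, n = 3 each; log2 change 3.28 ± 0.07 in edgeR, adjusted p = 8.34e-33). It was already higher at 4 h, by 2.82 ± 0.07. FBP1, the fructose bisphosphatase of gluconeogenesis, averaged 15.9 ± 1.75 CPM in ATRA cells at 12 h and 0.878 ± 0.215 CPM in DMSO cells. GBE1, the glycogen branching enzyme, averaged 27.02 ± 3.89 CPM in ATRA cells at 120 h and 248.8 ± 13.6 CPM in DMSO cells, a log2 change of -3.20 ± 0.08 (adjusted p = 1.42e-30). HMOX1, haem oxygenase, averaged 22.9 ± 4.61 CPM in ATRA cells at 120 h and 0.498 ± 0.181 CPM in DMSO cells, and SLC16A1, the lactate transporter MCT1, 40.2 ± 3.04 CPM in ATRA cells at 72 h and 115 ± 6.59 CPM in DMSO cells. ANGPTL4, a lipase inhibitor and HIF target, averaged 332 ± 34.4 CPM in ATRA cells at 72 h and 1.14 ± 0.501 CPM in DMSO cells, but 79.4% of its exon length is shared with RAB11B and its count is uncertain. In DMSO at 72 h against untreated cells, BHLHE41, a transcriptional repressor that HIF induces, averaged 3.64 ± 0.337 CPM in DMSO cells and 0.413 ± 0.0470 CPM in untreated cells, a log2 change of 3.10 ± 0.24 (adjusted p = 1.44e-13). TIGAR, which lowers fructose 2,6-bisphosphate, averaged 4.79 ± 0.708 CPM in DMSO cells and 9.26 ± 0.213 CPM in untreated cells, a log2 change of -0.96 ± 0.13 (adjusted p = 1.03e-07). But 9.2% of its exon length is shared with CCND2, which held 520553 counts over all libraries against 8635 for TIGAR. The count of TIGAR and its fall are therefore uncertain.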

How the data were processed

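The authors deposited 1 table of raw counts of fragments per gene for 33 libraries. Per the submitters' processing notes, Trimmomatic 0.36, STAR 2.5.2b and featureCounts 1.5.1 were used with GRCh38 and Ensembl release 90, and per the file headers fragments were counted by strand and for every gene they overlap. A member that shares exons with a neighbour therefore also holds that neighbour's fragments, and its level per length depends on the exon length taken. From these counts, edgeR 4.0.16 in R 4.3.3 kept 22971 of 85160 genes with filterByExpr, scaled by TMM (factors 0.827 to 1.108) and fitted the quasi-likelihood model with 1 mean per group over all 33 libraries. The common biological coefficient of variation was 0.0769. The 22 contrasts were each adjusted by Benjamini-Hochberg over all tested genes at 0.05.

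A change of the ATRA effect is the interaction of treatment and time. Ratios of few counts carry exact 95% intervals, and a fold against 0 counts used a floor of 3 counts over the group. These intervals cover counting error only. The labels call the replicates biological but do not say how the cultures were separated, so p-values measure the spread between these samples. Members and lists were chosen with earlier results of these data known. All 34 members could be named, and of the other pathway genes up to 3 rising and 3 falling per comparison with an average log2 CPM of at least 1. Promoters were read from RefSeq, positions from GENCODE 29. Same-numbered libraries of compared groups correlated between -0.123 and 0.399 in their deviations from group means. All 3 pairs exceeded 0.1 in ATRA against DMSO at 12 h and 120 h and in DMSO at 4 h against untreated cells. The fits were tested on simulated counts. Alternatives were RLE and upper-quartile scaling, DESeq2 1.42.0, limma-voom (limma 3.58.1), other filters, a replicate block, fits of the compared groups alone, a count without genes of mitochondria and small RNAs, and each library left out in turn.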

Additional observations from a re-analysis of the deposited data

Results flagged for a closer look

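Each result here is a member whose ATRA effect, the log2 change of ATRA over DMSO, differed between successive times by edgeR's interaction test with Benjamini-Hochberg adjustment over all tested genes at 0.05. There were 68 such results among the 34 members and 4 pairs of times. A positive value means a higher ATRA effect at the later time, and the values in brackets are log2 differences.

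Between 4 h and 12 h the effect changed for 10 members, with adjusted p between 7.8e-07 and 0.0309. It was higher at 12 h for SLC2A1 (0.39), HK2 (0.31), HK3 (4.29), PFKP (0.33), PKM (0.42), PFKFB3 (1.06), HIF1A (0.31) and EPAS1 (0.95), and lower for PFKFB4 (-0.61) and VEGFA (-0.86).

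Between 12 h and 24 h the effect changed for 9 members, with adjusted p between 1.98e-09 and 0.0463. It was higher at 24 h for ALDOC (0.74), PGAM1 (0.45), PKM (0.36) and EPAS1 (0.89), and lower for SLC2A3 (-0.64), HK1 (-1.43), PFKM (-0.60), PFKFB4 (-0.72) and NDRG1 (-1.69).

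Between 24 h and 72 h the effect changed for 22 members, with adjusted p between 1.71e-22 and 0.00628. The ATRA effect at 72 h was higher for SLC2A3 (3.81) and HK2 (0.32) of transporters and hexokinases, for ALDOA (0.56) and TPI1 (0.61) of the upper steps, for PGK1 (0.33), PGAM1 (0.70), ENO2 (1.84) and PKM (0.98) of the lower steps and for SLC16A3 (1.67) of lactate formation and export. So it was for PFKFB3 (0.90) and PFKFB4 (1.34) of the flux regulators, for HIF1A (0.47) and EPAS1 (1.75) of oxygen sensing and for P4HA1 (0.42), KDM3A (0.80), VEGFA (1.22) and ADM (3.63) of the other HIF targets. The effect at 72 h was lower for PFKM (-0.87) and ALDOC (-0.55) of the upper steps, for LDHB (-0.98) of lactate formation and export and for NDRG1 (-1.13) of the other HIF targets.

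Between 72 h and 120 h the effect changed for 27 members, with adjusted p between 2.87e-17 and 0.0139. The effect at 120 h was higher for HK2 (1.58) of transporters and hexokinases, for PFKM (0.92) of the upper steps, for HIF1A (1.13) of oxygen sensing and for ANKRD37 (1.23) and VEGFA (0.47) of the other HIF targets. The effect at 120 h was lower for SLC2A1 (-0.59) and SLC2A3 (-1.01) of transporters and hexokinases, for GPI (-0.90), PFKL (-0.72), PFKP (-0.54), ALDOA (-0.52), ALDOC (-0.83) and TPI1 (-1.07) of the upper steps, for GAPDH (-0.31), PGK1 (-1.41), PGAM1 (-1.02) and ENO1 (-1.23) of the lower steps and for LDHA (-1.51), LDHB (-0.42) and SLC16A3 (-0.58) of lactate formation and export. So it was for PFKFB3 (-0.55), PFKFB4 (-1.30) and PDK1 (-1.22) of the flux regulators, for EPAS1 (-1.16) of oxygen sensing and for KDM3A (-0.54) and BNIP3 (-1.16) of the other HIF targets. EGLN3 also passed in both steps, with fitted differences of 6.47 at 72 h against 24 h and -3.38 at 120 h against 72 h. These rest on 4 and 2 counts in ATRA and DMSO cells at 24 h, 754 and 4 counts at 72 h and 83 and 6 counts at 120 h, so they are set by the prior count and are no measure of the size of the change.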

How the results depend on the processing

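The directions of all called members held under every scaling, filter, tool and library left out, with no scaling moving the median of all genes by over 0.1. With the mean of the 24 h and 120 h DMSO groups in place of DMSO at 72 h, HK1 (1.14), HK2 (0.40), PFKM (0.46), PDK1 (0.53) and ANKRD37 (0.98) turned from called lower to called higher in ATRA at 72 h, BNIP3 (1.24), not called before, was called higher, and SLC2A1 (0.015) lost its call. That mean was lower for these members and came from other times, so these turns are no result about ATRA. The members called in DMSO at 12 h against 4 h went to 2 with the compared groups alone, beside 8. The calls over all genes fell too, to 849 of 18541 tested genes, beside 2553 of 22971. DMSO at 24 h against 12 h gave 0 members with limma-voom and 2 without a filter, beside 1, which was SLC2A3. With libraries or replicate 2 left out, the counts ran from 10 to 16 for DMSO at 12 h and 7 to 12 for DMSO at 24 h against untreated cells, the lowest without replicate 2 and without replicate 5 of DMSO at 24 h. They ran from 4 to 9 for DMSO at 12 h against 4 h (lowest without DMSO replicate 2 of 4 h, and also without DMSO replicate 5 of 12 h) and from 0 to 1 for DMSO at 24 h against 12 h. Without replicate 2 they were lowest for ATRA at 24 h against 12 h (10 to 18) and for the change of the ATRA effect at 12 h against 4 h (5 to 10) and at 24 h against 12 h (5 to 10). Without replicate 2 the calls over all genes also fell, to 2671 of 23401 for ATRA at 24 h against 12 h, beside 4514 of 22971. For DMSO at 12 h against untreated cells they fell to 2806 of 23401, beside 5208 of 22971. Such shifts in the counts are no result about the members, and their cause was not tested. The replicate block added 18 calls of single members and lost 1. It gave 31 members called in ATRA against DMSO at 72 h, where ALDOC, GAPDH and LDHA were added, and 32 in DMSO at 72 h against untreated cells. Of all 22971 genes it called 15024 in ATRA against DMSO at 72 h, beside 14873. Where the numbers pair the libraries, the block within the compared groups gave 28 members at 12 h and 30 at 120 h in ATRA against DMSO. Of all genes it called 10790 of 19543 at 12 h and 15412 of 19373 at 120 h. In DMSO at 4 h against untreated cells it gave 21 members. Over these comparisons 9 calls were added and 1 lost (ENO2 in DMSO at 4 h). Depth limits EGLN3, HK3 in DMSO and ANKRD37.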
